A study of Homo sapiens with 27 samples.

Results

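Connexin transcripts were followed in T47D, an established human breast cancer line of luminal type, through the genes GJA1, GJB2 and GJC1. These 3 genes were found by symbol among the 26485 genes of a count table, and they were chosen from earlier results of the same libraries, differences between the lines included. Their own levels are therefore given as a description, with no test. The cells carried a lentiviral vector, either empty (control) or with a tagged truncation mutant of GATA3, a luminal transcription factor: Splice del (deletion at a splice site), C321fs or A333fs (frameshifts). All lines were puromycin-selected stable pools with their own GATA3 genes in place, 1 pool per mutant, at fewer than 10 passages by the sample labels. Each of the 4 lines gave 3 RNA-seq libraries. With a single pool per mutant, the effect of a mutant cannot be told apart from other features of its pool. The study calls them biological replicates. The labels do not say whether they came from separate cultures, so p-values measure the spread between these libraries.

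Connexins are membrane proteins that form hexameric channels. A channel docks with one in the neighbouring cell, and arrays of docked pairs make up the gap junction, which lets ions and small metabolites pass between cells. In the breast, connexin 43 (GJA1) is best known from myoepithelial cells and connexin 26 (GJB2) from luminal cells. Connexin 45 (GJC1) is best known from the heart and smooth muscle.

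The promoter windows of the connexins whose levels are described most closely are shown first, since the mutants are of a transcription factor. Each is the 250 bases before the start given by RefSeq (GRCh38.p14), 5′ to 3′ in the direction of the gene. Capitals mark AP-1 letters (TGAGTCA) in GJA1, GC boxes (GGGCGG) in GJB2 and the partial GATA letters AGAT in GJC3, each read on both strands.
GJA1 promoter, chr6:121435396-121435645, plus strand: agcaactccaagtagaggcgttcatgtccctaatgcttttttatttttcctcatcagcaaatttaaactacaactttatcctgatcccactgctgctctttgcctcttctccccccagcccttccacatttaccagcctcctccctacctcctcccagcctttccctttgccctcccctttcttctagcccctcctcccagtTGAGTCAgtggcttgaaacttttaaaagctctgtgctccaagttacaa
GJB2 promoter, chr13:20192939-20193188, minus strand: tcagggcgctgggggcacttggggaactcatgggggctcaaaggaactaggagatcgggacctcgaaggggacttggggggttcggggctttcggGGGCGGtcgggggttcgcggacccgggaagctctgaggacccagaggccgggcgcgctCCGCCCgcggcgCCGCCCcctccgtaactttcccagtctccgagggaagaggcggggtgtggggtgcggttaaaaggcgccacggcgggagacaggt
GJC3 promoter, chr7:99929621-99929870, minus strand: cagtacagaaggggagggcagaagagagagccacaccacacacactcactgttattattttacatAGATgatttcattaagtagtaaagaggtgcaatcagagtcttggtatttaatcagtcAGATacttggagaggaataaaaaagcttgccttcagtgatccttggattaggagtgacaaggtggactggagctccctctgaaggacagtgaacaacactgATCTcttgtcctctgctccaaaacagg

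The GJA1 window held 1 match to TGAGTCA, from 48 to 42 bases before the start, letters that 4.2% of all 35116 promoter windows of this length hold. The GJB2 window held 3 GC boxes, found in 42.6% of windows, and its GC content was 70.0%, against 48.0% for GJA1 and 43.6% for GJC3. The longer GATA letters AGATAA or AGATAG or TGATAA or TGATAG, present in 22.3% of windows, were in none of the 3. AGAT, present in 64.2% of windows, occurred 3 times in the GJC3 window, once in that of GJB2 and not in that of GJA1. The paper gives the partial letters as WGAT (AGAT or TGAT) or, from another motif search, AGAT. TGAT was not counted here, and the GJA1 window printed above does hold it. A match describes letters and does not show binding. The gene start in the count table lay 69 bases upstream of the RefSeq start for GJA1 and 37 for GJB2. RefSeq windows were matched for 12 of 24 connexin and pannexin genes, and GJC1 was not among them.

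Libraries held 27872208 to 36788024 counted fragments, and 14789 genes passed the filter on low counts, the 3 connexins included. All 10 luminal epithelial markers passed that filter too. Their summed level ran from 18220 to 21450 CPM (counts scaled to library size, with TMM factors) in control libraries. In mutant libraries it ran from 12060 to 15010 CPM. KRT8, KRT19 and KRT18 were its largest parts and were lower than control in each mutant line mean, as were PGR, FOXA1 and GATA3. EPCAM went the other way, at 208 CPM in control and 268 to 278 CPM in mutant line means. CDH1, ESR1 and TFF1 were higher in Splice del and A333fs but not in C321fs line means. Of 8 basal or myoepithelial markers, 5 passed the filter. The sum over all 8 was 17.8 to 19.6 CPM in control and 17.8 to 20.3 in Splice del libraries. It was 18.4 to 23.0 in C321fs and 27.02 to 29.97 CPM in A333fs libraries. KRT14 stood at 0.0113 CPM in control and 0.569 CPM in A333fs line means, from 1, 0 and 0 against 18, 16 and 21 fragments. ACTA2, the largest part of the sum, read 13.2 CPM in control and 20.2 CPM in A333fs cells. TP63 was highest in C321fs, at 0.769 CPM against 0.301 CPM in control. OXTR read 0.525 CPM in control and 0.589 CPM in A333fs cells. CNN1 alone was lower in A333fs (0.083 CPM) than in control (0.113 CPM). Of 8 fibroblast markers 3 passed, with FAP at 0: COL1A1 ran from 53.4 CPM in control to 30.1 CPM in A333fs, COL3A1 from 5.13 to 1.63 CPM and LUM from 0.158 to 4.71 CPM. LUM read 1.82 CPM in Splice del and 0.373 CPM in C321fs cells. Of 6 endothelial markers 1 passed, with TEK at 0. Of 5 haematopoietic markers 3 passed, with PTPRC at 0 and CD14 highest in Splice del (2.50 CPM, against 0.682 CPM in control). The part of these levels in the results was not tested. GATA3 itself ranged in line means from 1001 ± 45.0 CPM (SD, n = 3; Splice del) to 1281 ± 50.8 CPM (control). Its counts pool the resident gene with the coding sequence of the introduced mutant.

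GJA1 encodes connexin 43 and lies on chromosome 6 of hg38 (chr6:121435577-121449744, plus strand), with its whole coding sequence of 382 residues in exon 2. Its transcript was scarce in control cells and higher in all 3 mutant lines. The control libraries read 1.70, 2.37 and 2.40 CPM, from 50, 74 and 69 fragments. The Splice del libraries read 7.35, 7.57 and 8.15 CPM. The A333fs libraries read 10.62, 10.98 and 10.74 CPM. The C321fs libraries stood apart from all others, at 27.4, 33.3 and 33.3 CPM, from 899, 960 and 1027 fragments. The mean ran from 2.16 ± 0.398 CPM (SD, n = 3) in control through 7.69 ± 0.412 in Splice del and 10.8 ± 0.181 in A333fs to 31.3 ± 3.42 CPM in C321fs cells. No neighbouring lines in this order overlapped in any library. How many of all genes separate the mutant lines from each other in this way was not computed.

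**Figure D1:**
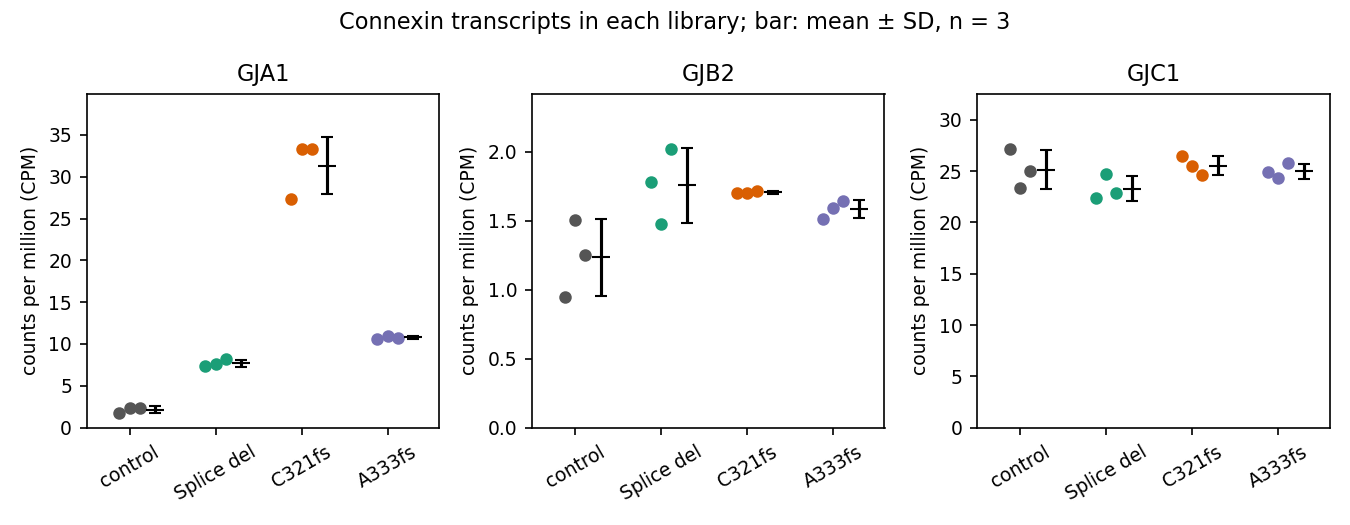
CPM of GJA1, GJB2 and GJC1 in each of the 12 libraries (points) with the mean and SD of each line (bars, n = 3), on linear axes from 0. GJA1 separates the 4 lines, with C321fs at 27.4 to 33.3 CPM, whereas the GJC1 libraries of all lines overlap between 22.3 and 27.1 CPM.

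Against control, the log2 fold change of GJA1 was 1.83 (standard error 0.13) in Splice del, a 3.55-fold difference. It was 2.32 (0.13) in A333fs, or 4.99-fold, and 3.86 (0.12) in C321fs, or 14.5-fold. For comparison, 6.21%, 4.63% and 5.46% of all tested genes were called higher in Splice del, C321fs and A333fs cells (edgeR's quasi-likelihood test, adjusted p below 0.01, fold change over 1.5), and 4.53%, 2.26% and 6.81% lower. All 3 libraries lay above all 3 control libraries in 31.7%, 27.3% and 31.2% of genes, so separation alone is common here. The 3 comparisons share their control libraries.

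Between mutant lines, GJA1 was 4.08-fold lower in Splice del than in C321fs (log2 fold change -2.03, standard error 0.10). It was 2.90-fold lower in A333fs than in C321fs (-1.54, 0.09). A333fs exceeded Splice del by 1.41-fold (0.49, 0.10). Splice del against C321fs had 1.76% of genes called higher and 0.879% lower. A333fs against C321fs had 2.47% and 3.08%, and A333fs against Splice del 1.03% and 1.97%.

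The exons of GJA1 have a GC content of 40.6%, and 15.2% of tested genes have a lower one. A fit without each library's own trend over GC content and exon length left GJA1 at 1.53 (Splice del), 1.99 (A333fs) and 3.55 (C321fs) on the same scale. The differences between mutant lines were then -2.03, -1.56 and 0.47. A processed pseudogene near-identical to GJA1 is annotated on chromosome 5, and fragments that map to both places were left out of the counts.

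GJB2 encodes connexin 26, of 226 residues, on chromosome 13 (chr13:20187465-20192975, minus strand), with the coding sequence in exon 2. It was counted 28 to 69 times per library, near the lower end of what was tested. The control libraries read 0.95, 1.51 and 1.25 CPM. The Splice del libraries read 1.78, 1.48 and 2.02 CPM. The C321fs libraries read 1.71, 1.70 and 1.72 CPM and the A333fs libraries 1.52, 1.6 and 1.64 CPM. Splice del overlapped control, and the other mutant lines lay above control, A333fs by the narrow gap between 1.52 and 1.51 CPM. Of all tested genes, 27.3% lay above control in this way in C321fs and 31.2% in A333fs cells. Splice del and C321fs overlapped each other as well.

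The GJB2 means were 1.24 ± 0.279 (SD, n = 3) in control, 1.59 ± 0.0640 in A333fs, 1.71 ± 0.00913 in C321fs and 1.76 ± 0.272 CPM in Splice del cells. Relative to control this was 0.36 (standard error 0.19), 0.46 (0.19) and 0.50 (0.18) on the log2 scale. Without the GC trend it was 0.14, 0.30 and 0.33, with errors of 0.19 each. The mutant lines differed from each other by 0.04 to 0.14 on the log2 scale, less than the error of about 0.17.

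GJC1 encodes connexin 45, of 396 residues, on chromosome 17 (chr17:44798448-44830811, minus strand). No line stood apart in its level. The control libraries read 27.1, 23.4 and 25.0 CPM and the Splice del libraries 22.3, 24.7 and 22.9 CPM. The C321fs libraries read 26.5, 25.5 and 24.6 CPM and the A333fs libraries 24.9, 24.3 and 25.8 CPM. Each line overlapped the next in order, from 25.5 ± 0.946 CPM in C321fs to 23.3 ± 1.24 CPM in Splice del cells (SD, n = 3). Relative to control the log2 difference was -0.11 (Splice del), -0.01 (A333fs) and 0.02 (C321fs), with errors of 0.07. The signs depend on the scaling: with library totals only these were 0.08, 0.14 and 0.19, and with the GC trend removed -0.31, -0.21 and -0.10.

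**Figure D2:**
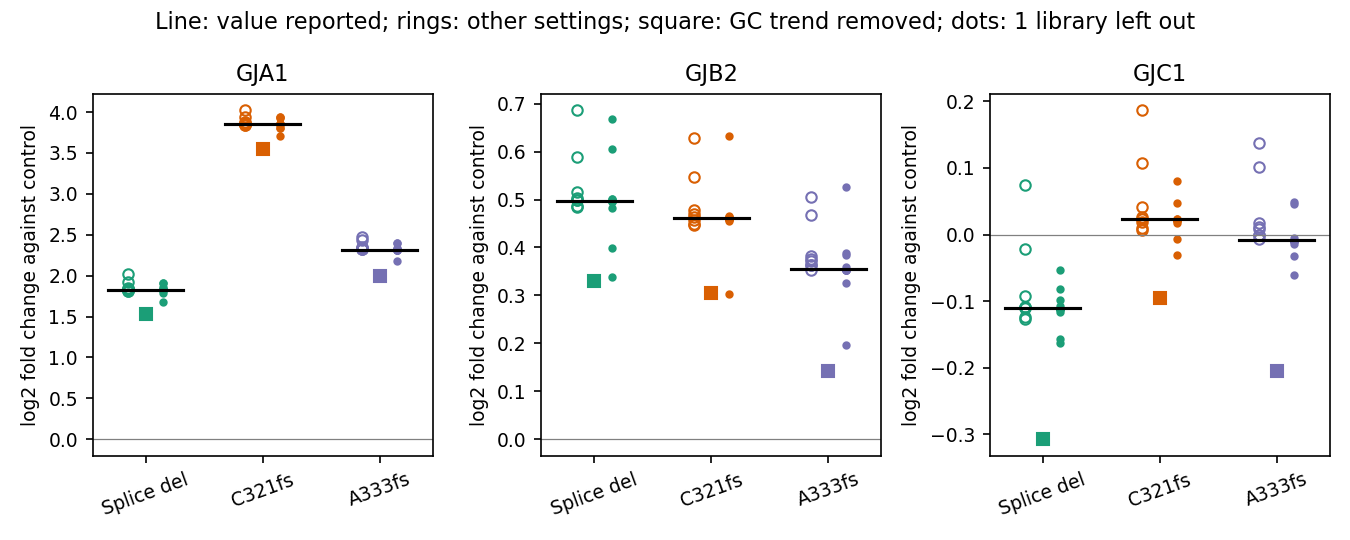
Log2 fold change against control of GJA1, GJB2 and GJC1 (the vertical axes differ) in 3 mutant lines. The line marks the value reported, rings other settings, the square the fit with the GC trend removed, and dots fits that left out 1 library; GJA1 stays between 1.53 and 4.03 throughout, and GJC1 falls on both sides of 0.

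Levels of different connexins were compared per exon length, as RPKM. Of 20 connexin genes in the table, 9 passed the filter. Of the other 11, 4 had no fragment in any library and none exceeded 11 fragments. GJA5, which encodes connexin 40, held that highest count: its A333fs libraries had 9, 11 and 5 fragments, Splice del 5, 6 and 2, control 1, 1 and 0, and C321fs 0, 1 and 1. It was named after its values were seen: in fits without the filter, A333fs against control was called by edgeR (adjusted p = 0.00137) and DESeq2 (adjusted p = 0.00965), from these few fragments. GJE1 was named only.

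The most abundant connexin per length was GJD3 in every line, with 16.3 ± 0.702 RPKM in control cells. Its counts can include reads of an overlapping antisense gene, since the counting was unstranded. GJC1 followed in control, at 3.22 ± 0.244 RPKM, and GJA1 stood at 0.680 ± 0.125 RPKM. In C321fs cells GJA1 reached 9.88 ± 1.08 RPKM and stood above GJC1, at 3.27 ± 0.121 RPKM. In A333fs cells GJA1 and GJC1 were close, at 3.401 ± 0.0572 and 3.20 ± 0.0922 RPKM. In Splice del cells GJA1 read 2.43 ± 0.130 RPKM, below GJC1 at 2.98 ± 0.159 RPKM. GJB2 stayed between 0.530 and 0.754 RPKM in the line means.

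**Figure D3:**
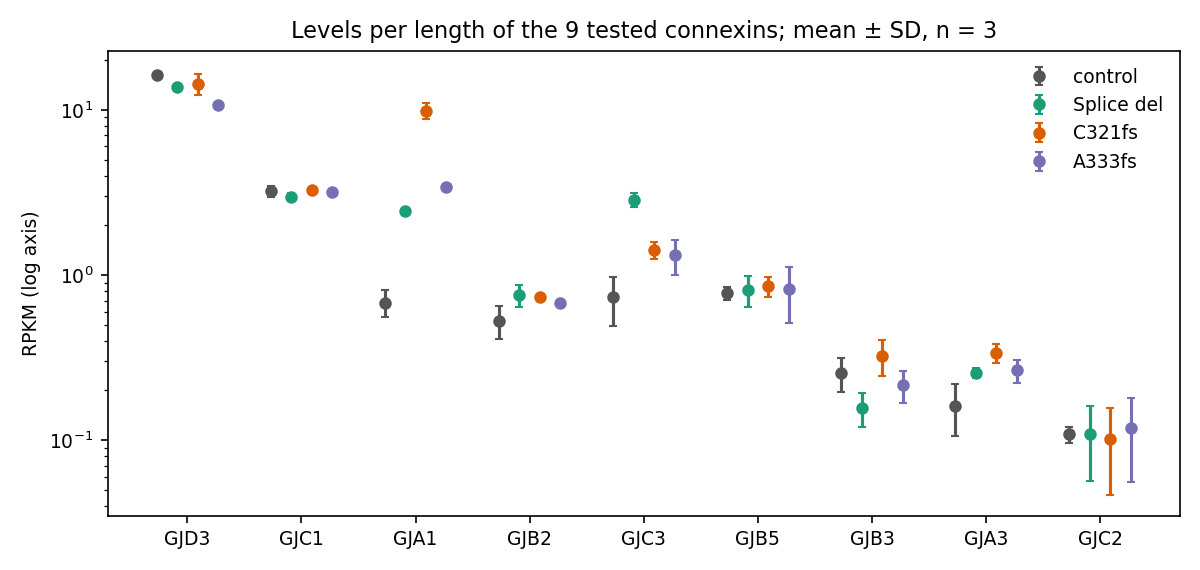
RPKM (log axis) of the 9 tested connexins in the 4 lines, as mean and SD of 3 libraries. GJA1 moves from 0.680 RPKM in control to 9.88 RPKM in C321fs cells, while GJD3, whose counts can include antisense reads, stays the highest in each line.

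GJA1 made up 2.97% ± 0.521 (SD, n = 3) of the summed connexin RPKM in control cells. Its share was 10.0% ± 0.186 in Splice del, 16.3% ± 0.772 in A333fs and 31.7% ± 4.75 in C321fs cells. The summed RPKM was 20.9 ± 0.674 in A333fs, 22.9 ± 0.436 in control, 24.3 ± 0.852 in Splice del and 31.3 ± 1.43 in C321fs cells. Without GJA1 the sum was 17.5, 22.2, 21.8 and 21.5 RPKM. The share of GJD3 was 71.0% ± 1.82 in control and 45.5% ± 4.49 in C321fs cells. Every share given here depends on the GJD3 counts, which can include antisense reads. The share of GJC1 ran from 10.4% in C321fs to 15.3% in A333fs cells, and that of GJB2 from 2.31% to 3.25%.

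Among the 8 other connexins and pannexins that were tested, of 20 in the table, 3 were called higher in C321fs cells, 1 in each of the other mutant lines, and 1 was called lower, in A333fs. Over all genes, 4.63% were called higher in C321fs, 6.21% in Splice del and 5.46% in A333fs, and 6.81% lower in A333fs, so a single gene of 8 is not far from these shares. Their median log2 fold changes against control were 0.12, 0.32 and 0.08, beside 0.03, 0.02 and 0.01 for all genes.

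GJC3, which encodes a connexin of myelinating glia, was called higher in all 3 mutant lines, and most in Splice del. The control libraries read 1.12, 0.71 and 0.63 CPM and the Splice del libraries 3.20, 2.87 and 3.52 CPM. The C321fs libraries read 1.77, 1.56 and 1.39 CPM and the A333fs libraries 1.81, 1.12 and 1.47 CPM, the lowest of which touched control. The order of the mutant lines differed from that of GJA1.

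In Splice del cells GJC3 rose by 1.96 on the log2 scale (standard error 0.21, adjusted p = 2.6e-06 by edgeR's quasi-likelihood test, with p-values here and below adjusted over all tested genes). The rise was 0.95 in C321fs (0.24, edgeR adjusted p = 0.0039) and 0.84 in A333fs cells (0.24, edgeR adjusted p = 0.00685). The C321fs call was lost without control replicate 2 or 3 or C321fs replicate 1 or 2 (0.79 to 0.95, edgeR adjusted p 0.0126 to 0.023). The A333fs call was lost without control replicate 2 or 3 or A333fs replicate 1 or 3 (0.67 to 0.84, edgeR adjusted p 0.0179 to 0.0382). Splice del exceeded C321fs by 1.01 (edgeR adjusted p = 0.00161), and A333fs lay below Splice del by -1.12 (edgeR adjusted p = 6.02e-04).

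The genes AZGP1 and AZGP1P1 lie beside GJC3 and were named after the values of GJC3 were seen. AZGP1, which encodes a secreted glycoprotein, read 88.3 ± 7.86 CPM (SD, n = 3) in control, 160 ± 6.23 (C321fs), 266 ± 9.65 (A333fs) and 489 ± 15.7 CPM (Splice del). AZGP1P1, its pseudogene, read 0.736 ± 0.0964, 1.61 ± 0.203, 2.01 ± 0.280 and 4.42 ± 0.156 CPM in the same order. Both were called higher in all 3 mutant lines and were highest in Splice del, as GJC3 was, but they were higher in A333fs than in C321fs line means, unlike GJC3. Whether the levels of these neighbours bear on that of GJC3 was not tested.

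GJA3, a lens connexin, was called higher in C321fs cells, with 1.83, 1.49 and 1.94 CPM against 1.15, 0.58 and 0.80 CPM in control (log2 fold change 1.06, standard error 0.23, edgeR adjusted p = 0.00118). It gave 0.66 (edgeR adjusted p = 0.026) in Splice del and 0.71 (edgeR adjusted p = 0.0151) in A333fs cells, neither called. Both became calls without control replicate 1 (0.95 and 1.00), and the A333fs value also without A333fs replicate 1 (0.83). GJD3 was called lower in A333fs cells, with 44.8, 42.3 and 43.1 CPM against 63.0, 68.7 and 65.5 CPM (-0.60, standard error 0.08, edgeR adjusted p = 1.4e-05). This fold lay at the limit of 1.5 and fell to -0.19 with the GC trend removed. Without control replicate 2 it was -0.57 and without A333fs replicate 2 -0.54, both short of that limit. The exons of GJD3 have a GC content of 63.0%, and GJD3 overlaps an antisense gene in RefSeq, whose reads the unstranded counting cannot tell apart from its own.

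PANX1, which encodes a channel protein of the related pannexin family, was the most counted gene of the group not called. It read 45.7 ± 2.01 CPM in control, 48.7 ± 2.22 in A333fs, 52.2 ± 1.35 in Splice del and 56.3 ± 2.28 in C321fs cells (SD, n = 3). PANX2 was called higher in C321fs cells, with 1.98, 1.77 and 1.88 CPM against 1.22, 0.90 and 0.76 CPM (0.96, standard error 0.26, edgeR adjusted p = 0.00536). That call was lost without control replicate 2 or 3 or any 1 of the C321fs libraries (0.83 to 1.00, edgeR adjusted p 0.0135 to 0.0272). PANX2 was lower in A333fs than in C321fs cells, with 1.03, 0.86 and 0.44 CPM (-1.28, standard error 0.26, edgeR adjusted p = 0.00185). Without A333fs replicate 3 this was -0.99 (edgeR adjusted p = 0.0106).

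**Figure D4:**
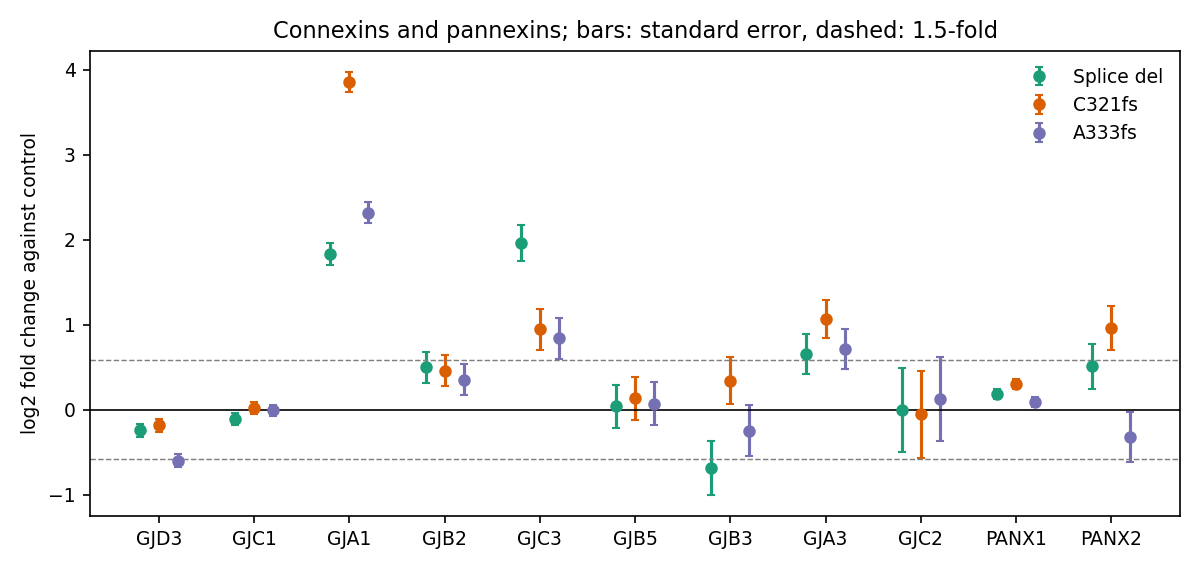
Log2 fold change against control, with standard errors, of 9 connexins and 2 pannexins in 3 mutant lines, with dashed lines at a 1.5-fold change. GJA1 in C321fs, at 3.86, is the highest point, GJC3 is highest in Splice del at 1.96, and GJC1 lies at 0 within 0.11.

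Connexin 43 is held at the membrane by scaffold proteins and is phosphorylated, ubiquitinated and turned over. Of 31 genes for such partners, 27 were tested, and 2 were called, both lower in A333fs cells, a share near the 6.81% of all genes called lower there. PRKCD, a protein kinase C, fell from 78.5 ± 4.25 to 45.2 ± 1.56 CPM (SD, n = 3; log2 fold change -0.80, edgeR adjusted p = 4.13e-08). AKT1, a kinase, fell from 450 ± 23.7 to 298 ± 2.09 CPM (-0.60, edgeR adjusted p = 2.96e-06). The AKT1 call lay at the fold limit, with -0.24 after removal of the GC trend, -0.56 without control replicate 2 and -0.55 without A333fs replicate 2. TJP1, which encodes the scaffold ZO-1, gave -0.29 in C321fs, -0.19 in Splice del and -0.06 in A333fs cells, and CTNNB1 (beta-catenin) 0.04, 0.06 and 0.27, none called. The list's median log2 fold change was -0.14 in C321fs and -0.06 in each of the other mutant lines.

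Of 14 transcription factors with known action on the GJA1 promoter, 12 were tested. Against control, 2 were called lower in A333fs cells (6.81% of all genes), 2 in C321fs (2.26%) and 1 in Splice del (4.53%). JUN, a subunit of AP-1, was called lower in Splice del (-0.60, edgeR adjusted p = 7.24e-07) and C321fs cells (-0.61, edgeR adjusted p = 1.53e-06). The JUN libraries read 58.1 to 58.8 CPM in control, 45.5 to 48.8 in A333fs, 37.2 to 39.4 in C321fs and 37.1 to 41.0 in Splice del cells. The Splice del value was -0.57 without Splice del replicate 1, short of the fold limit. With library totals only, JUN gave -0.41 and -0.45 in Splice del and C321fs cells, also short of it. So did upper-quartile scaling (-0.51 and -0.53) and removal of the GC trend (-0.51 and -0.50).

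TCF7L1, a TCF factor of the Wnt pathway, was called lower in C321fs cells (-0.80, edgeR adjusted p = 1.54e-06). TBX2, a T-box repressor, was called lower in A333fs cells (-0.75, edgeR adjusted p = 4.69e-06), and so was TCF7 (-0.74, edgeR adjusted p = 0.00141; without control replicate 2, -0.62 and 0.0115). With the GC trend removed both calls were lost, TBX2 at -0.25 and TCF7 at -0.50. ESR1, the estrogen receptor, gave 0.23, -0.01 and 0.11 and was not called. FOS, named after its values were seen, was lower in Splice del than in C321fs cells (0.48 ± 0.147 against 1.04 ± 0.208 CPM, SD, n = 3; -1.07, edgeR adjusted p = 0.00978). It lost this call in 11 of 12 fits that left out 1 library, and with DESeq2 (adjusted p = 0.0208). The list's medians against control were -0.19, -0.15 and -0.04.

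The 3 genes on either side of each connexin gave 18 neighbours, of which 12 were tested. Against control, 1 was called lower in Splice del (4.53% of all genes) and 2 higher in C321fs cells (4.63%). In A333fs cells 1 was called higher (5.46%) and 2 lower (6.81%). Around GJA1, PKIB, a protein kinase A inhibitor, was called higher in A333fs cells (0.75, edgeR adjusted p = 6.39e-06), with 0.55 in Splice del and 0.52 in C321fs cells, not called. The A333fs call was lost with the GC trend removed (0.43), and both other values became calls without control replicate 3 (0.68 and 0.65) or with library totals only (0.74 and 0.69). TBC1D32 was called higher in C321fs cells (0.70, edgeR adjusted p = 0.00681), a call lost without control replicate 1 or 2 or C321fs replicate 2 or 3 (0.60 to 0.65) and with the GC trend removed (0.31). It gave 0.49 in A333fs and 0.62 in Splice del cells, not called, though the latter was called in 10 of 21 other settings, DESeq2 and the fits without control replicate 3 (0.78), C321fs replicate 1, A333fs replicate 1 or A333fs replicate 2 (0.62 each) among them. HSF2 and SERINC1 gave 0.32 to 0.46 in the 3 mutant lines, with no call. With library totals only, SERINC1 became a call in Splice del (0.62) and A333fs cells (0.61). The highest value of these 4 neighbours in A333fs cells was 0.75 (PKIB), beside 2.32 for GJA1 itself. In C321fs cells it was 0.70 (TBC1D32), beside 3.86, and in Splice del cells 0.62 (TBC1D32), beside 1.83.

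Around GJB2, the connexin GJA3 was called as above, and ZMYM2 and CRYL1 were not. In Splice del, C321fs and A333fs cells ZMYM2 gave 0.41, 0.41 and 0.30, and CRYL1 -0.37, -0.36 and -0.46. With library totals only, ZMYM2 became a call in Splice del cells (0.6). GJB6, also beside GJB2, was under the filter. Around GJC1, EFTUD2, a spliceosome component whose exons overlap those of HIGD1B, was called lower in Splice del cells (-0.65, edgeR adjusted p = 1.67e-06). That call was lost without control replicate 2 (-0.58), with library totals only (-0.46) and with upper-quartile scaling (-0.56). In C321fs cells EFTUD2 gave -0.55, not called, but a call without control replicate 3 (-0.61) or C321fs replicate 3 (-0.60). DBF4B (-0.63, edgeR adjusted p = 1.36e-06) and ADAM11 (-0.68, edgeR adjusted p = 6.39e-04; -0.57 without control replicate 3) were called lower in A333fs cells. With the GC trend removed both calls were lost, DBF4B at -0.40 and ADAM11 at -0.31, and so they were with library totals only (-0.48 and -0.54). ADAM11 was also lower in A333fs than in C321fs cells (-0.67, edgeR adjusted p = 0.00225), a call lost without C321fs replicate 1 (-0.52) or A333fs replicate 1 (-0.63). CCDC43 and CCDC103 were not called. The medians over the 12 genes were 0.23, 0.25 and 0.30.

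The genes whose levels followed GJA1 most closely were sought among 1122 genes with line means at least 1 log2 unit apart. Over the 12 libraries, which fall into 4 lines, Pearson's r of log2 CPM was 0.97 for THRSP, 0.96 for GNAI1, 0.95 for CD36 and 0.95 for ANXA1. It was 0.93 for STAM-AS1 and 0.92 for STC1. CD36, a fatty acid transporter, read 2.67 ± 0.430 CPM in control, 4.11 ± 0.156 in Splice del, 8.54 ± 0.505 in A333fs and 21.5 ± 1.74 in C321fs cells (SD, n = 3), the order of GJA1. GNAI1, a G protein subunit, ANXA1, annexin A1, THRSP and STC1 had the same order of line means, which their choice by r with GJA1 favours. STAM-AS1 did not, with 2.12 CPM in Splice del above 1.89 CPM in A333fs cells. Among the most opposite genes were C6orf132 (-0.97) and DOCK10 (-0.91). These values describe 4 line levels that share their libraries.

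**Figure D5:**
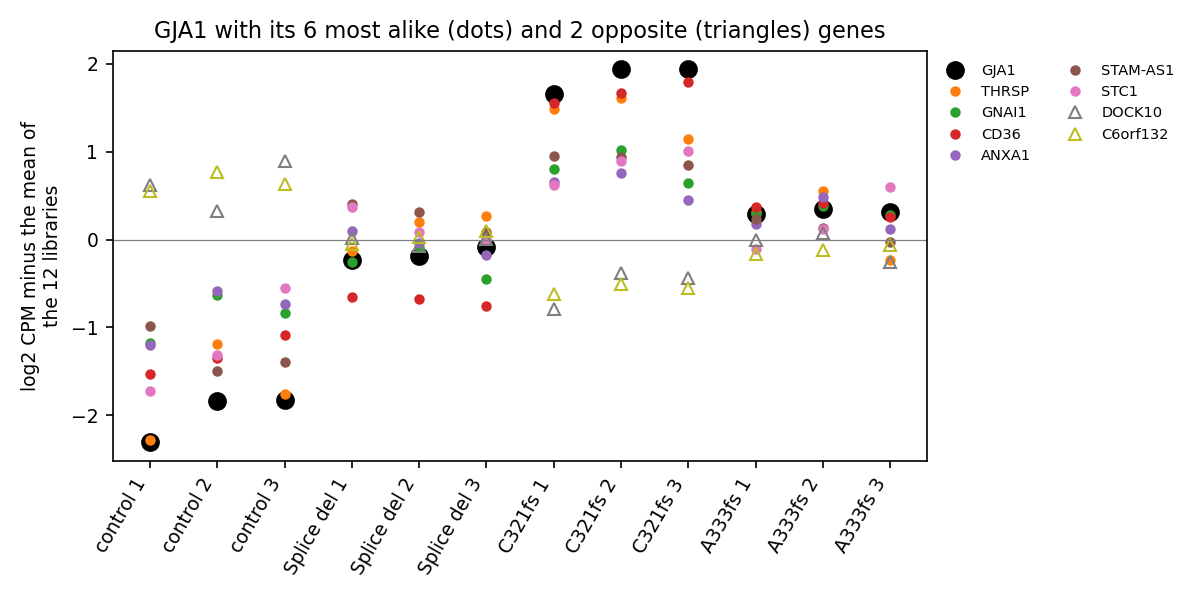
Log2 CPM of each gene minus its own mean over the 12 libraries, for GJA1 (large dots), its 6 most alike genes (small dots) and 2 of the most opposite genes (triangles). CD36 and GJA1 are highest in the C321fs libraries, and C6orf132 and DOCK10 are lowest there.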

How the data were processed

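RNA-seq of 12 T47D libraries was used, with 3 for each of 4 lines. The authors trimmed reads with Trimmomatic and aligned them to hg38. The submitters' processing notes name HISAT2, and the column names of the table name STAR. Per the file headers, featureCounts 1.6.4 made the deposited counts, unstranded and for paired reads; these are whole, not normalized and not pooled. The paper and the labels name different growth media. The ChIP-seq samples were not analysed here.

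Libraries held 27872208 to 36788024 counts. With edgeR 4.0.16 in R 4.3.3, filterByExpr kept 14789 genes, which were scaled by TMM and fitted with glmQLFit and glmQLFTest, 1 coefficient per line. In 6 comparisons a call required a fold change over 1.5 with an adjusted p (Benjamini-Hochberg) under 0.01. Log2 CPM had a prior count of 2. Alternatives were other scalings and filters, DESeq2 1.42.0, 2-line fits, a replicate term, a loess trend (span 0.3) over GC content and length, and leaving out each library.

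The 3 connexins and the gene lists were chosen with earlier results of these data known. Named genes were the called connexins and pannexins, the most counted one not called, up to 4 partners and 4 regulators with the smallest adjusted p against control (with TJP1, CTNNB1, JUN and ESR1), the tested neighbours, and the 6 genes most and 3 least like GJA1, of which 1 is not reported here.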

Additional observations from a re-analysis of the deposited data

Results flagged for a closer look

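Several genes differed between mutant lines by the test of that difference (edgeR's quasi-likelihood test, Benjamini-Hochberg adjustment). GJC3 was higher in Splice del than in C321fs cells by 1.01 (log2) and lower in A333fs than in Splice del cells by -1.12. AZGP1 differed in the same comparisons by 1.61 and -0.88 and was higher in A333fs than in C321fs cells by 0.73, and AZGP1P1 by 1.46 and -1.14. PANX2 was lower in A333fs than in C321fs cells by -1.28, as was ADAM11 by -0.67. FOS was lower in Splice del than in C321fs cells by -1.07, a call lost in 14 of 21 other settings, DESeq2 included. The PANX2 call was lost without A333fs replicate 3 (-0.99), and that of ADAM11 without C321fs replicate 1 (-0.52), without A333fs replicate 1 (-0.63) and with the GC trend removed (-0.49). The differences of GJA1 between mutant lines were not tested, since the gene was chosen on these libraries. Groups of 3 libraries were not tested for single libraries that stand apart.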

How the results depend on the processing

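With library totals only, the median difference from control over all genes (log2) moved to 0.155 to 0.219, and with upper-quartile scaling to 0.106 to 0.122. Against control, GJA1 gave 2.02 in Splice del and 4.03 in C321fs cells with library totals only, and 3.55, 1.99 and 1.53 in C321fs, A333fs and Splice del cells with the GC and length trend removed. GJB2 gave 0.14 in A333fs cells with that trend removed. GJC1 in Splice del cells turned to 0.075 with library totals only, and gave -0.022 with upper-quartile scaling and -0.31 with the trend removed. In C321fs cells GJC1 gave 0.11, 0.19 and -0.10 under upper-quartile scaling, library totals only and the trend removed, and in A333fs cells 0.10, 0.14 and -0.21. With the trend removed, GJC1 was -0.21 in Splice del and -0.11 in A333fs against C321fs cells. The cause was not tested.

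Of the partner genes, 2 were called in any comparison, and 1 under upper-quartile scaling, no filter, at least 10 counts in every library, 2-line fits or the trend removed, and 22 with no minimum fold change. Without 1 library the count ran from 1 to 2. Of the regulators, 5 were called, with 3 after the trend was removed, 10 with no minimum fold change and 3 to 5 without 1 library. Of the other connexins and pannexins, 4 were called, and 3 to 5 under the alternatives. Of the 6 genes most like GJA1, 4 were also among the top 6 by Spearman's rho and 5 with library totals only. Of the neighbours, 6 were called, with 2 after the trend was removed and 11 with no minimum fold change. The share of all tested genes called in any comparison was not computed. These counts therefore show how calls depend on the settings, and no trait of the lists.

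Signs of small differences against control turned with the trend removed for GJD3 in C321fs (0.012), TCF7L1 in A333fs (0.083), CTNNB1 in Splice del (-0.15) and C321fs (-0.14), ESR1 in A333fs (-0.0010) and CCDC43 in Splice del (-0.12), C321fs (-0.11) and A333fs cells (-0.0070). ADAM11 in A333fs against Splice del cells turned to 0.0070, and GATA3 in C321fs cells to 0.0020 with library totals only.

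The replicate numbers did not pair the libraries: residuals of the 18 same-numbered pairs correlated by -0.00915 on average (-0.123 to 0.165). With a replicate block, GJA1 gave 1.84, 3.86 and 2.32 against control, and the number of genes called in each list over any comparison was as without it, while TBC1D32 gained a call in Splice del cells (0.62), as in 9 other settings. Depth limits GJB2, GJC3, GJA3 and PANX2, with at most 124 fragments per library. It also limits other named genes. In control libraries THRSP had 3, 9 and 5 fragments, AZGP1P1 23, 25 and 18, and FOS 20, 22 and 15.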
